A study of Rattus norvegicus with 12 samples.

Results

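Tlr2, Tlr4 and Cd14 are 3 innate sensors of microbial and damage-associated molecules, taken here from the 32623 Ensembl gene IDs counted in rat urethral tissue. They were chosen by ID: ENSRNOG00000009822 for Tlr2, ENSRNOG00000010522 for Tlr4 and ENSRNOG00000017819 for Cd14. The count table carries no gene symbols, and the RefSeq rat gene table used here matched 0 of its IDs, so the pairing of these IDs with their symbols was not checked. For the same reason no other gene of the Toll-like receptor pathway and no cell type marker could be looked up by name, and the tissue label was not checked against markers.

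Toll-like receptors are membrane proteins that recognise conserved microbial structures and molecules released by damaged cells. Tlr2 pairs with other Toll-like receptors and responds to bacterial lipopeptides. Tlr4, together with its partner MD-2, responds to lipopolysaccharide of Gram-negative bacteria. Cd14 is a lipid-anchored or soluble protein that hands lipopolysaccharide to Tlr4 and also assists Tlr2. Both receptors signal through Myd88 to NF-kB, a transcription factor of inflammatory genes. Monocytes, macrophages and neutrophils carry all of these proteins, and epithelial, endothelial and stromal cells can carry the receptors too.

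The comparison covered 4 groups of 3 libraries each, all from male rats whose age and strain the labels do not give. Sham rats had no urethral injury. In the remaining groups the urethra was injured mechanically, with no further agent named (injury), with rapamycin (an inhibitor of the mTOR kinase) or with TDN, a tetrahedral nanostructure of DNA. The labels give no dose, route or time of harvest, and whether the injury group is the one given the vehicle of the design text is not stated. Nothing states either that each library of a group is a different rat, and p-values therefore reflect the spread among libraries, part or all of which may be technical.

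Libraries held 44765817 to 55928721 counts, and all 3 genes passed the filter on low counts that left 17521 genes. Tlr4 had 86 to 1259 counts per library, Tlr2 682 to 10388 and Cd14 4909 to 17313. The share of counting error in the spread within each group was not computed. Rapamycin replicate 2 stood apart, with 17475 genes detected and a scaling factor of 0.660. The remaining libraries had 18659 to 19254 genes and factors of 0.873 to 1.13. Over all genes other than these 3, injury replicate 3 lay nearest to sham of its group, at a root mean square log2 distance from the sham mean of 1.11 beside 1.74 for replicate 1 and 1.42 for replicate 2. Rapamycin lay at 1.62, 2.56 and 1.08 for replicates 1 to 3 and TDN at 0.843 to 0.974. Sham libraries, each measured from the mean of the other sham libraries, lay at 0.559 to 0.779.

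Because Tlr2 and Cd14 stood high in the same libraries and Tlr4 stood low in them, the stretches before their annotated starts are shown first. RefSeq (build GRCr8, not the build Rnor 6.0 used for counting) gives a start for each gene, and the 250 bases before it were searched on both strands. The motifs were the PU.1 core GAGGAA, the Ets motif GGAAGTG, the AP-1 motif TGACTCA and the NF-kB motif. PU.1 and other Ets factors act in myeloid cells, and AP-1 and NF-kB act downstream of Toll-like receptors. Each line gives 30 bases 5′ to 3′ on the gene's strand, with matches to 1 motif in capitals.

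Tlr2, NF-kB, chr2:171504743-171504772, minus strand: aggcccttgGGGGAATTCCCatacggagcc
Tlr2, NF-kB, chr2:171504580-171504609, minus strand: ccctggcctgGGGACGTCCCcttcccgcac
Tlr2, Ets, chr2:171504565-171504594, minus strand: gtccccttcccgCACTTCCcgatcttcaag
Tlr4, PU.1 core, chr5:85161168-85161197, plus strand: atgaaagccagcTTCCTCttgctgTTCCTC
Cd14, PU.1 core, chr18:28611281-28611310, minus strand: tagggttgttagGAGGAAgagaagtgggga
Cd14, PU.1 core, chr18:28611246-28611275, minus strand: gttgagttcacaGAGGAAgggacagggtga

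Tlr2 held 3 matches to the NF-kB motif, of which 2 overlap in the first line, and 1 to the Ets motif on the opposite strand. Tlr4 held 2 matches to the PU.1 core, both on the opposite strand and 50 to 67 bases before its start. Cd14 held 2 matches to the PU.1 core on its own strand. No match to one motif overlapped a match to another. The AP-1 motif had no match in any of the 3 windows. Of 33469 RefSeq windows of the same length, 23.3% held the PU.1 core, 8.25% the Ets motif, 4.05% the AP-1 motif and 6.33% the NF-kB motif. The Tlr2 and Cd14 windows lie wholly inside the RefSeq span of their genes, which thus begins farther upstream than the start used. The Tlr4 window lies outside the span of its gene. These matches describe letters and say nothing of binding, and their relation to the levels of the 3 genes was not tested.

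Tlr2 and Cd14 had the same order of group means, lowest in sham and then higher in TDN, injury and rapamycin, while Tlr4 had the reverse order. Levels are CPM, counts relative to the scaled size of a library, and they are compared between libraries and not between genes, which differ in length. In bulk tissue, more or fewer cells that carry a transcript cannot be told apart from more or less transcript per cell.

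Tlr2, the lipopeptide receptor, was at 13.9, 17.1 and 12.5 CPM in sham replicates 1 to 3. It was at 94.6, 47.6 and 20.8 CPM in injury. In rapamycin it was at 218.1, 88.7 and 79.95 CPM. All injury and rapamycin libraries lay above all sham libraries, and injury replicate 3 came closest to sham. TDN libraries were at 40.5, 22.9 and 23.7 CPM, also above all of sham and overlapping injury. The sham mean was 14.5 ± 2.3 CPM, the TDN mean 29.0 ± 9.9, the injury mean 54.3 ± 37.4 and the rapamycin mean 128.9 ± 77.4 (SD, n = 3 each).

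Cd14, the co-receptor that delivers lipopolysaccharide, was at 91.3, 87.4 and 96.7 CPM in sham replicates 1 to 3. Injury libraries were at 334.4, 173.0 and 90.8 CPM, so that replicate 3 lay within the sham range while replicates 1 and 2 lay above it. In rapamycin Cd14 was at 363.5, 398.0 and 225.8 CPM. In TDN it was at 163.3, 122.9 and 132.9 CPM. All rapamycin and TDN libraries exceeded all sham libraries, and TDN lay inside the wide range of injury. The sham mean was 91.8 ± 4.7 CPM, the TDN mean 139.7 ± 21.0, the injury mean 199.4 ± 123.9 and the rapamycin mean 329.1 ± 91.1 (SD, n = 3 each).

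Tlr4, the lipopolysaccharide receptor, was at 15.8, 22.1 and 16.1 CPM in sham replicates 1 to 3. Injury libraries were at 6.98, 7.43 and 13.6 CPM, all below sham, with replicate 3 again nearest to it. In rapamycin Tlr4 was at 8.71, 2.91 and 12.7 CPM. In TDN it was at 14.4, 16.2 and 15.3 CPM. The rapamycin libraries lay below all sham libraries, whereas TDN overlapped sham and stood above every injury library. The sham mean was 18.0 ± 3.5 CPM, the TDN mean 15.3 ± 0.9, the injury mean 9.33 ± 3.69 and the rapamycin mean 8.11 ± 4.93 (SD, n = 3 each).

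**Figure D1:**
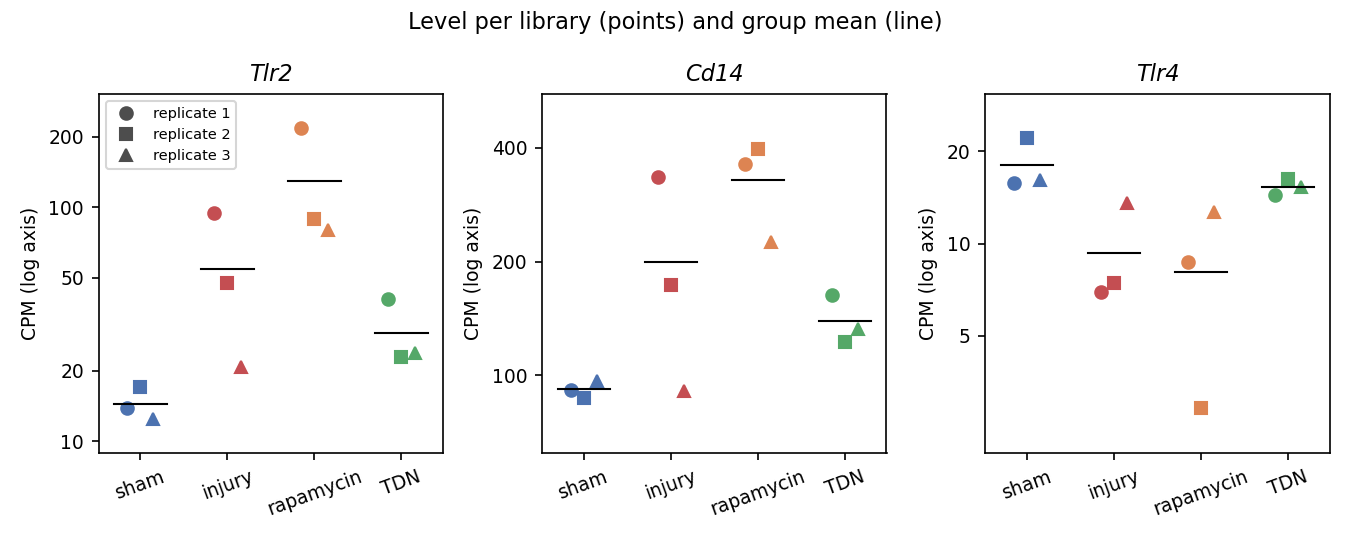
Level of Tlr2, Cd14 and Tlr4 in CPM on log axes for each of the 12 libraries (points, shaped by replicate number) with group means (lines). Tlr2 and Cd14 are highest in rapamycin and in injury replicate 1, while Tlr4 is lowest in rapamycin replicate 2, at 2.91 CPM, and nearly level in TDN.

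The lowest Tlr4 value came from the library that stood apart. Rapamycin replicate 2 had 86 Tlr4 counts, or 1.92 CPM without the scaling factor, the lowest of the 12 libraries on both scales. Without the factor, its Tlr2 was 58.5 and its Cd14 262.7 CPM, still above all sham libraries, which then lay at 13.4 to 19.4 for Tlr2 and 97.7 to 103.7 for Cd14.

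The spread within a group differed among the genes. In sham the SD of log2 CPM was 0.23 for Tlr2, 0.27 for Tlr4 and 0.07 for Cd14, beside a median of 0.17 over all tested genes. In injury it was 1.09 for Tlr2 and 0.94 for Cd14, higher than in 81.9% and 76.6% of tested genes, and 0.53 for Tlr4 beside a median of 0.51. In rapamycin Tlr4 had the widest spread of the 3 genes, at 1.10 beside a median of 0.77. In TDN it had the narrowest, at 0.09 beside a median of 0.19, with Tlr2 at 0.46 and Cd14 at 0.21 (n = 3 libraries in each case). The highest injury library held 4.56 times the Tlr2 and 3.68 times the Cd14 of the lowest.

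Injury against sham asked how the injured urethra differed from uninjured tissue. Tlr2 had a log2 fold change of 1.91 (SE 0.54, 95% interval 0.70 to 3.11, quasi-likelihood test of edgeR, p adjusted over all tested genes = 0.106), or 3.75-fold. The value for Cd14 was 1.12 (SE 0.40, 95% interval 0.24 to 2.0, edgeR adjusted p = 0.157), or 2.17-fold. For Tlr4 it was -0.95 (SE 0.46, 95% interval -1.96 to 0.07, edgeR adjusted p = 0.252), a level 1.93-fold lower. None of the 3 genes passed an adjusted p of 0.05 in this edgeR test, a threshold that 0.651% of tested genes passed. Tlr2 and Cd14 had an unadjusted p under 0.05, as had 21.8% of genes. Of the 3 genes, Tlr2 and Tlr4 did not overlap between the groups, beside 42.3% of all tested genes. Tlr2 had a higher log2 fold change than 93.7% of tested genes, Cd14 than 87.2% and Tlr4 than 16.3%.

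Whether Tlr2 and Cd14 passed depended on single libraries, as did the number of all genes called. Without injury replicate 3, the library nearest to sham, Tlr2 had a log2 fold change of 2.30 (edgeR adjusted p = 0.0235) and Cd14 one of 1.47 (edgeR adjusted p = 0.0251). Without injury replicate 1 the value for Cd14 was 0.52. With rapamycin replicate 2 left out of the shared estimate of the spread, Tlr2 had an edgeR adjusted p of 0.0490, and DESeq2 gave it an adjusted p of 0.0106. The fit of all 12 libraries called 114 genes. The number was 2117 without injury replicate 3, 1966 without rapamycin replicate 2 and 1924 in DESeq2. Over all alternatives the adjusted p of Tlr2 ran from 0.0106 to 0.398 and that of Cd14 from 0.0251 to 0.591.

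Rapamycin against sham asked what set rapamycin-treated injured tissue apart from uninjured tissue. Tlr2 and Cd14 rose. The log2 fold change of Tlr2 was 3.15 (SE 0.57, 95% interval 1.89 to 4.42, edgeR adjusted p = 0.0220), or 8.90-fold, with 3 of 3 rapamycin libraries above sham. That of Cd14 was 1.84 (SE 0.41, 95% interval 0.94 to 2.74, edgeR adjusted p = 0.0292), or 3.59-fold, also with 3 of 3 libraries above sham. Tlr4 had a value of -1.15 (SE 0.46, 95% interval -2.17 to -0.13, edgeR adjusted p = 0.0977), or 2.21-fold lower, with 3 of 3 libraries below sham. These 2 calls of 3 genes stand beside 12.3% of all tested genes called in this comparison (9.54% higher), and the 3 genes without overlap beside 52.3%. All 3 had an unadjusted p under 0.05, as had 39.4% of genes. Tlr2 had a higher log2 fold change than 96.2% of genes, Cd14 than 89.5% and Tlr4 than 18.8%.

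Both calls were lost when any 1 sham library was left out, with an edgeR adjusted p of 0.0994, 0.111 and 0.0796 for Tlr2 and 0.114, 0.122 and 0.0968 for Cd14 without sham replicates 1, 2 and 3. Both were also lost without rapamycin replicate 1 (edgeR adjusted p = 0.0532 for Tlr2 and 0.0571 for Cd14) and in a fit of only the 6 libraries compared (edgeR adjusted p = 0.0602 for both). Most calls of other genes were lost in these fits too. The fit of all 12 libraries called 2162 genes, beside 1, 1 and 20 without sham replicates 1, 2 and 3. Without rapamycin replicate 1 the number was 79, and in the fit of the 6 libraries it was 34. The Cd14 call was further lost without rapamycin replicate 2 (edgeR adjusted p = 0.0527) and without TDN replicate 2 or 3 (edgeR adjusted p = 0.0512 and 0.0521). Over all alternatives the log2 fold change of Tlr2 stayed between 2.55 and 3.42 and that of Cd14 between 1.72 and 2.05. Tlr4 had an edgeR adjusted p of 0.0248 and a log2 fold change of -1.63 without rapamycin replicate 3, where 7249 genes were called. Its log2 fold change was -0.70 without rapamycin replicate 2. In DESeq2, which called 5763 genes, Tlr4 had an adjusted p of 0.0477.

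TDN against sham compared the injured urethra after TDN with the uninjured one. The log2 fold change was 1.003 for Tlr2 (SE 0.53, 95% interval -0.17 to 2.18), 0.61 for Cd14 (SE 0.40, 95% interval -0.27 to 1.48) and -0.23 for Tlr4 (SE 0.46, 95% interval -1.24 to 0.78), each with an edgeR adjusted p of 1. The share of tested genes called was 0%, and 5.31% had an unadjusted p under 0.05, none of them among these 3. In DESeq2 315 genes were called and in limma voom 0. Tlr2 and Cd14 lay above sham in 3 of 3 TDN libraries, as did 15.7% of tested genes, and 32.6% of genes did not overlap in either direction. In a fit of the 6 libraries alone, Cd14 had a log2 fold change of 0.63 and passed (edgeR adjusted p = 0.0326), while Tlr2 had an edgeR adjusted p of 0.0572. That fit called 993 genes. The adjusted p of Cd14 over all alternatives ran from 0.0326 to 1.

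**Figure D2:**
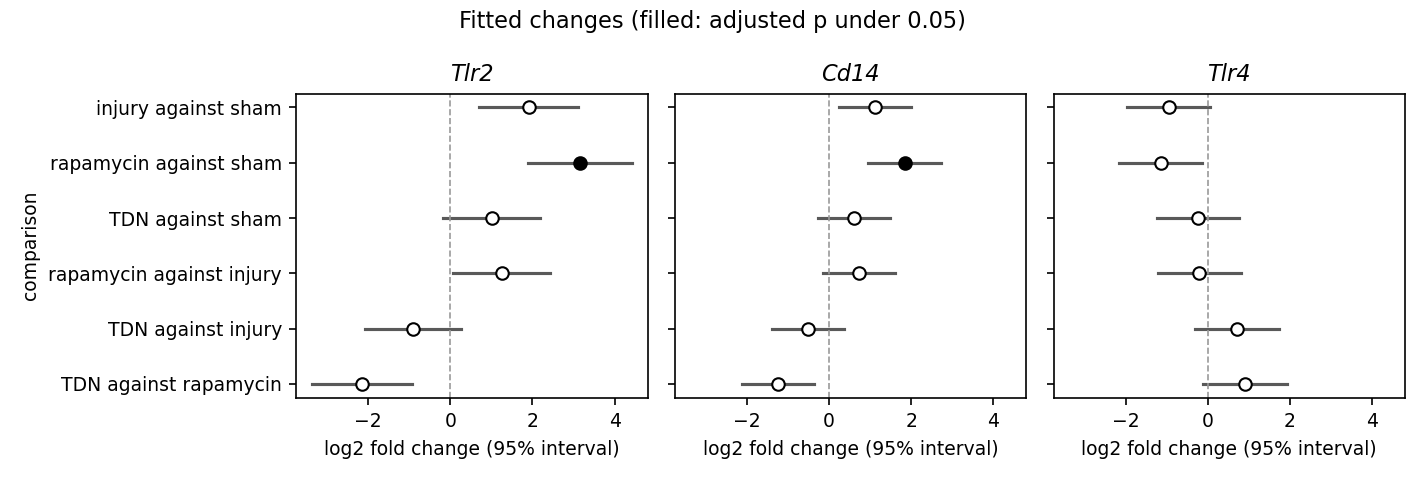
Fitted log2 fold change (circles) with its 95% interval (bars) for Tlr2, Cd14 and Tlr4 in each of the 6 comparisons, with filled circles for an adjusted p under 0.05 and a dashed line at 0. The 2 filled circles are Tlr2 and Cd14 in rapamycin against sham, and in each comparison Tlr4 lies on the opposite side of 0 from Tlr2 and Cd14.

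TDN against injury compared the treated with the untreated injured urethra. Tlr2 had a log2 fold change of -0.90 (SE 0.53, 95% interval -2.07 to 0.27, edgeR adjusted p = 0.649). That of Cd14 was -0.51 (SE 0.40, 95% interval -1.39 to 0.36, edgeR adjusted p = 0.651) and that of Tlr4 was 0.72 (SE 0.46, 95% interval -0.30 to 1.73, edgeR adjusted p = 0.649). These intervals include both no difference and differences of more than 2-fold in the case of each gene. Of all tested genes 0% passed and 6.13% had an unadjusted p under 0.05, which none of the 3 had. DESeq2 called 44 genes and limma voom 0. Tlr4 was higher in 3 of 3 TDN libraries than in every injury library, as were 10.2% of tested genes, and 19.5% did not overlap in either direction. Without injury replicate 1 the Cd14 value was 0.08, on the other side of 0, and that of Tlr2 was -0.23.

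Rapamycin against injury compared the drug-treated with the untreated injured urethra. The log2 fold change was 1.25 for Tlr2 (SE 0.53, 95% interval 0.07 to 2.43, edgeR adjusted p = 0.902), 0.72 for Cd14 (SE 0.40, 95% interval -0.15 to 1.60, edgeR adjusted p = 0.902) and -0.20 for Tlr4 (SE 0.46, 95% interval -1.21 to 0.81, edgeR adjusted p = 0.930). All 3 genes overlapped between the groups, and 3.94% of tested genes did not. Tlr2 alone of the 3 had an unadjusted p under 0.05, as had 4.38% of tested genes, and 0% passed after adjustment. DESeq2 called 30 genes and limma voom 0. Without rapamycin replicate 1 the Tlr2 value was 0.58, and without injury replicate 1 it was 1.91. The Cd14 value came to 0.37 when injury replicate 3 was left out and to 1.32 when injury replicate 1 was. For Tlr4 the value was 0.17 without injury replicate 3 and 0.20 without rapamycin replicate 2, so its direction was not settled.

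TDN against rapamycin set both treatments of the injured urethra side by side. Tlr2 had a log2 fold change of -2.15 (SE 0.55, 95% interval -3.36 to -0.94, edgeR adjusted p = 0.161), a level 4.44-fold lower in TDN. The value for Cd14 was -1.24 (SE 0.40, 95% interval -2.12 to -0.35, edgeR adjusted p = 0.161), or 2.36-fold lower, and for Tlr4 it was 0.92 (SE 0.46, 95% interval -0.10 to 1.93, edgeR adjusted p = 0.232), or 1.89-fold higher. None of the 3 genes overlapped between the groups, beside 38.5% of all tested genes without overlap. The edgeR test called 0% of genes, and 24.3% had an unadjusted p under 0.05, Tlr2 and Cd14 among them. DESeq2 called 1738 genes, with an adjusted p of 0.00484 for Tlr2 and 0.0382 for Cd14, and limma voom called 0. Without rapamycin replicate 3 the edgeR adjusted p was 0.0250 for Tlr2 and 0.0349 for Cd14, in a fit that called 4788 genes. Over all alternatives the adjusted p ran from 0.00484 to 0.371 for Tlr2 and from 0.0349 to 0.417 for Cd14.

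Between neighbours in the order of group means (TDN against sham, TDN against injury and rapamycin against injury), no gene passed the adjusted threshold in the edgeR fit of all 12 libraries, which does not show that the neighbours are alike. Tlr2 in rapamycin against injury had an interval that left out 0, and Cd14 in TDN against sham passed in the fit of these groups alone, which called 993 genes. The ends of the order, rapamycin and sham, passed for Tlr2 and Cd14. These comparisons share groups and are therefore not independent.

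The balance among the 3 sensors was then followed as the ratio of their counts within a library, which depends on neither depth nor scaling. A ratio's level carries the genes' lengths, so it is read across libraries only. The ratio of Tlr2 to Tlr4 counts was 0.878, 0.774 and 0.776 in sham replicates 1 to 3. It was 13.6, 6.40 and 1.53 in injury. It was 25.0, 30.5 and 6.29 in rapamycin, and 2.81, 1.41 and 1.55 in TDN. Every library of the 3 injured groups lay above every sham library, and sham libraries differed little among themselves. How many other gene pairs separate in this way was not computed, for this ratio or the later ones. Of single tested genes, 42.3% did not overlap sham when injury was compared, 52.3% for rapamycin and 32.6% for TDN. Tlr2 lay above sham and Tlr4 below it in every injury and rapamycin library, so their ratio had to separate in these groups. On the log2 scale the ratio exceeded the sham mean of -0.31 ± 0.10 by 2.66 in injury (mean 2.35 ± 1.60), 4.38 in rapamycin (mean 4.08 ± 1.24) and 1.18 in TDN (mean 0.87 ± 0.54; SD, n = 3 each). In rapamycin replicate 2 the ratio was the highest of the 12 libraries, while its Tlr2 level was below that of injury replicate 1.

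For Cd14 to Tlr4 the ratio of counts was 5.79, 3.96 and 5.99 in sham replicates 1 to 3. It was 47.9, 23.3 and 6.69 in injury and 41.7, 136.7 and 17.8 in rapamycin. In TDN it was 11.3, 7.57 and 8.67. All libraries of the injured groups again lay above all of sham. In rapamycin every library had Cd14 above and Tlr4 below all of sham, so this ratio too had to separate there. The difference of mean log2 ratios from sham was 1.92 in injury, 3.18 in rapamycin and 0.81 in TDN. In injury this difference came to 1.27 when replicate 1 was left out and to 2.69 when replicate 3 was, and for Tlr2 to Tlr4 to 1.95 and 3.53. Each of these 6 comparisons with sham gave an exact two-sided permutation p of 0.1, the smallest that 3 libraries against 3 can give, so none could reach 0.05 (adjusted p = 0.1125 over 9 ratio tests).

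The ratio of Tlr2 to Cd14 was added after the values were seen. The ratio of its counts to those of Cd14 averaged 0.159 ± 0.034 over sham libraries and 0.262 ± 0.029 over injury libraries. Rapamycin libraries averaged 0.392 ± 0.191 and TDN libraries 0.204 ± 0.038 (SD, n = 3 each). Injury and rapamycin did not overlap sham (exact permutation p = 0.1 for each), and TDN did (exact permutation p = 0.3). The highest value, 0.60, came from rapamycin replicate 1, the library with the most Tlr2.

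**Figure D3:**
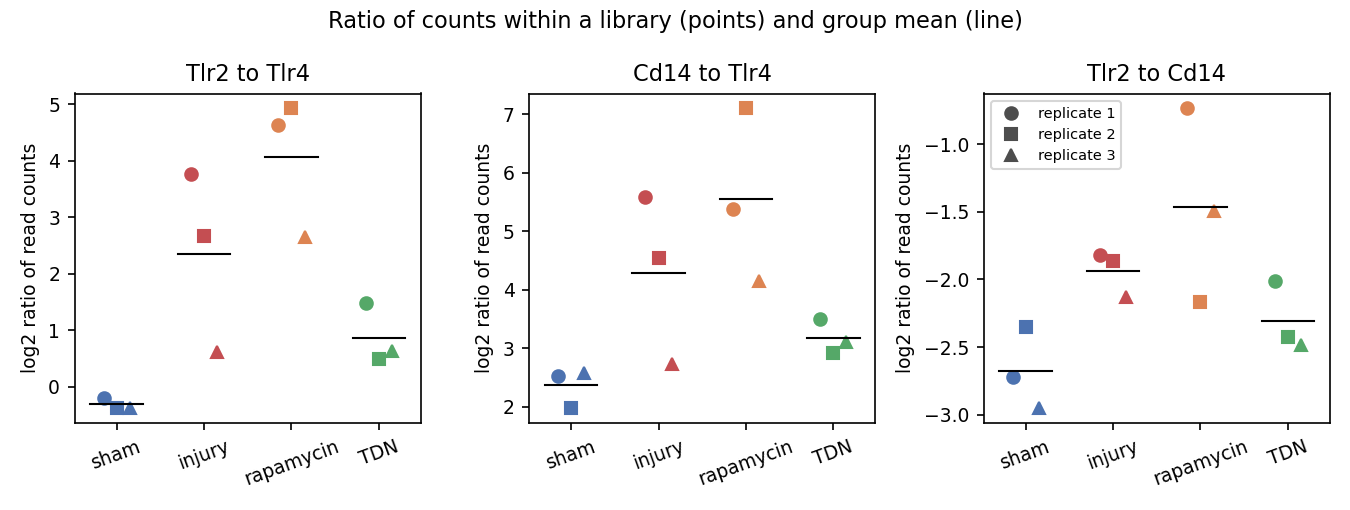
Log2 ratio of read counts of Tlr2 to Tlr4, Cd14 to Tlr4 and Tlr2 to Cd14 within each of the 12 libraries (points, shaped by replicate number), with group means (lines). In the first 2 panels every injury, rapamycin and TDN library lies above all 3 sham libraries, and rapamycin replicate 2 is highest. The share of other gene pairs that separate likewise was not computed.

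Across the 12 libraries the pattern of Tlr2 was much like that of Cd14. The Pearson correlation of their log2 CPM was 0.95, which placed Cd14 at rank 126 of 17520 other genes in likeness to Tlr2, and Tlr2 at rank 135 in likeness to Cd14. Tlr4 correlated with Tlr2 at -0.69 and with Cd14 at -0.82, and 17.4% of genes ranked below Cd14 in likeness to Tlr4. The gene most like Tlr2 was ENSRNOG00000009912 (0.99) and the one most like Tlr4 was ENSRNOG00000007646 (0.99), both without a symbol in the files. These correlations are descriptions over 12 libraries that share groups, depth and scaling.

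**Figure D4:**
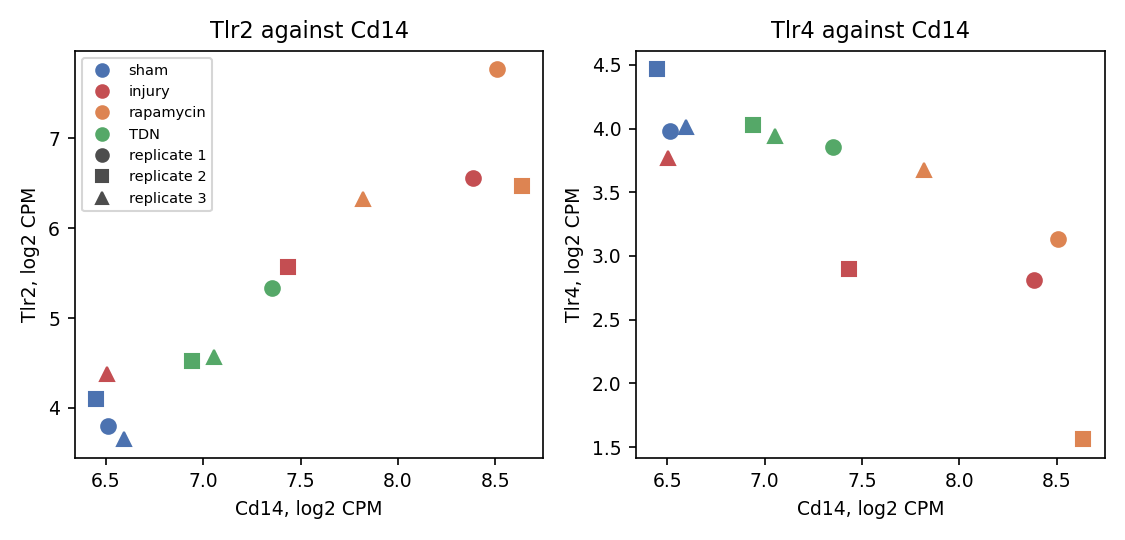
Log2 CPM of Tlr2 (left) and Tlr4 (right) against that of Cd14, with 1 point per library, coloured by group and shaped by replicate number. Over the 12 libraries Tlr2 is higher and Tlr4 lower where Cd14 is higher, and injury replicate 3 sits beside the sham libraries in both panels.

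Within groups the relation was also looked at, after each group's mean was taken out. Deviations of Tlr2 and Cd14 correlated with Pearson's r = 0.82 (exact permutation within groups p = 0.0802) and Spearman's rho = 0.64 (exact permutation p = 0.112). For Tlr4 and Cd14 r was -0.65 (exact permutation p = 0.0864) and rho -0.74 (exact permutation p = 0.0556). For Tlr2 and Tlr4 r was -0.20 (exact permutation p = 0.661) and rho -0.31 (exact permutation p = 0.476). Adjusted over the 3 pairs no p was under 0.05, with 0.130, 0.130 and 0.661 for Pearson's r. Without rapamycin replicate 2 r was 0.94 for Tlr2 and Cd14 (exact permutation p = 0.0347, adjusted p = 0.0521), -0.85 for Tlr4 and Cd14 (exact permutation p = 0.0116, adjusted p = 0.0347) and -0.77 for Tlr2 and Tlr4 (exact permutation p = 0.132). Without the 2 libraries farthest from the median of the first gene named, r was 0.74, -0.83 and -0.34 in the same order. For Tlr4 and Cd14 these libraries were rapamycin replicates 2 and 3. Replicate 1 then has no deviation from its group mean, so this r equals that without the rapamycin group.

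Within injury the order of libraries was the same for Tlr2 and Cd14 and the reverse for Tlr4, with replicate 1 at one end and replicate 3 at the other. The distance from sham over all other genes, given above, had that order too. In rapamycin the order of Tlr2 differed from that of Cd14. Replicate 1 had the most Tlr2, and replicate 2 the most Cd14 and the least Tlr4. Replicate 3 had the least Tlr2 and Cd14 and the most Tlr4. The distance of the rapamycin libraries from sham had the order of Cd14 and the reverse of that of Tlr4, but not the order of Tlr2. In TDN replicate 1 had the most Tlr2 and Cd14 and the least Tlr4, and it lay farthest from sham. TDN replicate 3 lay nearest to sham, while replicate 2 had the least Tlr2 and Cd14 and the most Tlr4. Sham did not share the relation seen in injury, as its orders of Tlr2 and Cd14 were opposite. Sham replicate 2 had the most Tlr2, the most Tlr4 and the least Cd14. Sham replicate 3 had the least Tlr2 and the most Cd14. The part that the libraries' general distance from sham has in these values was not tested.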

How the data were processed

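The authors deposited whole-number counts per Ensembl gene ID, not normalized, with 1 column per library. Per the labels' protocols, RNA was poly(A)-enriched, and per the submitters' processing notes the build was Rnor 6.0. How reads were aligned, annotated and counted, and with which strand option, is not given in the sources used here. Reads of overlapping or antisense genes therefore cannot be told apart. Of 15 library columns, 12 matched labelled samples and 3 were not used here. The 3 genes, the gene lists and the tests were chosen with earlier results of these data known. Named genes were to be the 3 members, other pathway genes by level and the genes most alike in pattern. Without symbols, the pathway list and the cell type markers were not evaluated, and 2 IDs are printed.

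All genes were tested in edgeR 4.0.16 (R 4.3.3) after the default expression filter and TMM scaling, with 1 coefficient per group over all 12 libraries, the quasi-likelihood test and Benjamini-Hochberg adjustment over the 17521 genes tested. Log2 CPM used a prior count of 2. Standard errors are the log2 fold change over the square root of F. Ratios and correlations used exact two-sided permutation in SciPy 1.17.1. Alternatives were DESeq2 1.42.0, limma 3.58.1 voom, other scalings, no filter, fewer groups, a replicate block and each library left out. The titles carry replicate numbers that recur in each group. Deviations of same-numbered libraries correlated over all tested genes at 0.107, 0.138 and 0.261 in sham and injury. None of the other 5 comparisons had all 3 correlations over 0.1, although rapamycin and injury had 0.0921, 0.156 and 0.550. The labels do not say that the numbers pair libraries. The main tests therefore used no pairs, and the replicate block served only as an alternative.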

Additional observations from a re-analysis of the deposited data

How the results depend on the processing

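The directions of the log2 fold changes held in each alternative for Tlr2, Tlr4 and Cd14 but for 3 cases, each with a library left out: Cd14 in TDN against injury (0.083 without injury replicate 1) and Tlr4 in rapamycin against injury (0.17 without injury replicate 3 and 0.20 without rapamycin replicate 2). The cause of these and the following differences was not tested. In DESeq2 the log2 fold changes of Tlr2 in injury against sham (1.90), Tlr4 in rapamycin against sham (-1.13) and Tlr2 and Cd14 in TDN against rapamycin (-2.18 and -1.29) passed the threshold. In fits of the 2 groups compared, Tlr2 and Cd14 in rapamycin against sham (3.197 and 1.88) no longer passed, and Cd14 in TDN against sham (0.63) did. Without the rapamycin group Tlr2 in injury against sham (1.97) passed.

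With single libraries left out, log2 fold changes ran from 1.24 to 2.30 for Tlr2 and from 0.52 to 1.47 for Cd14 in injury against sham. They ran from 2.55 to 3.42 for Tlr2, from 1.74 to 2.05 for Cd14 and from -1.63 to -0.70 for Tlr4 in rapamycin against sham. In TDN against rapamycin they ran from -2.46 to -1.52 for Tlr2 and from -1.44 to -1.10 for Cd14, and in TDN against injury from -0.86 to 0.083 for Cd14. For Tlr4 in rapamycin against injury they ran from -0.68 to 0.20. Without rapamycin replicate 2, the correlation of Tlr4 and Cd14 within groups was -0.85. Without the rapamycin group, an alternative chosen after the data were seen, r was 0.95 for Tlr2 and Cd14, -0.83 for Tlr4 and Cd14 and -0.71 for Tlr2 and Tlr4 over 9 libraries, and no adjusted p of r was under 0.05 (the smallest of rho was 0.0278, for Tlr4 and Cd14). The difference of mean log2 ratios from sham ran from 1.95 to 3.53 in injury, 3.96 to 5.10 in rapamycin and 0.87 to 1.37 in TDN for Tlr2 to Tlr4. For Cd14 to Tlr4 it ran from 1.27 to 2.69, 2.40 to 3.87 and 0.62 to 0.94.

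The replicate block changed no call of the 3 genes. It gave Tlr2 1.65 (edgeR adjusted p = 0.0718), Tlr4 -1.04 and Cd14 0.97 in injury against sham, and it called 76 genes there. Upper quartile scaling put the median log2 fold change of all genes between -0.14 and 0.15, while the 3 genes kept their directions.

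Counts of genes called moved more. Injury against sham gave 114 genes, and 180 with upper quartile scaling, 1924 in DESeq2, 0 in a fit of these groups alone (5096 at an unadjusted p under 0.05), 2616 without the rapamycin group and 0 to 2117 with a library left out. Rapamycin against sham gave 2162, and 5763 in DESeq2, 1157 with no filter, 34 in a fit of these groups alone and 1 to 7249 with a library left out. TDN against sham gave 0, and 315 in DESeq2, 993 in a fit of these groups alone, 10 without the rapamycin group and 0 to 16 with a library left out. Rapamycin against injury gave 0, and 30 in DESeq2 and 0 to 3 with a library left out. TDN against injury gave 0, and 44 in DESeq2. TDN against rapamycin gave 0, and 1738 in DESeq2 and 0 to 4788 with a library left out.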
